A study of Rattus norvegicus with 12 samples.

Results

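The uteri of 3 rats given 3-methylcholanthrene (3-MC) alone were compared with those of 3 rats given vehicle, across 14506 genes. All rats were ovariectomized young adult Lewis females, so the controls, too, lacked the ovarian source of estradiol and progesterone. The vehicle was DMSO. The dose of 3-MC was 15 mg/kg per day, given for 3 days in a row, and uteri were taken 24 h after the last dose. The study held 12 rats in 4 groups of 3, and the groups given 17β-estradiol (E2, 4 µg/kg per day) or E2 with 3-MC for the same time are used below only beside this comparison. Total RNA of each uterus was hybridised to 1 Affymetrix array, and of 29214 probe sets the 15310 with a single gene symbol gave these 14506 genes. The comparison asks what 3-MC does to uterine gene expression when estradiol is absent.

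3-MC is a polycyclic aromatic hydrocarbon and a ligand of the aryl hydrocarbon receptor (AhR). The unliganded receptor is held in the cytoplasm by a chaperone complex with Hsp90; the liganded receptor enters the nucleus, pairs with ARNT and binds xenobiotic response elements, short DNA sites with the core GCGTG, near genes of xenobiotic metabolism such as Cyp1a1 and Cyp1b1. It also switches on Ahrr, whose product represses the receptor. In the rodent uterus AhR ligands are known to oppose several responses to estradiol, and in cultured cells 3-MC has also been reported to activate the estrogen receptor.

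Values below are log2(intensity + 16), written as levels, and differences between group means on that scale ± standard error (SE), for 3 rats per group. The arrays are of whole tissue, so fewer cells of a type and less RNA per cell cannot be told apart. Genes of the uterine wall were bright in both groups. The smooth muscle myosin gene Myh11 lay between 11.89 and 12.50, the epithelial adhesion gene Epcam between 9.63 and 10.55, and the estrogen receptor gene Esr1 between 10.86 and 11.83. Vehicle rat 1 stood apart. Its levels spread most widely, with an interquartile range of 2.70 over all probe sets against 1.87 to 2.35 on the other 11 arrays. Genes tested were split into 3 equal groups by mean level, and the median level of the brightest group was 9.67 in vehicle rat 1, 8.83 and 8.73 in vehicle rats 2 and 3, and 9.02, 8.78 and 9.03 in the 3-MC rats. The median SD of a gene was 0.39 among the vehicle rats, 0.13 over vehicle rats 2 and 3, and 0.16 among the 3-MC rats. Results are therefore also given after quantile normalization, which puts all arrays on one distribution, and without vehicle rat 1. A batch or scan date is not given in the sources used here.

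No gene was called between 3-MC and vehicle. Leading genes here are the 8 per side with the smallest unadjusted limma p among genes whose groups did not overlap. Of these, C3, Kif6, Mmp7 and S100g, higher with 3-MC, had the largest differences on their side. On the lower side these were the globin genes Hba-a3, Hbb and Hbb-b1. C3 and Mmp7 entered the test through their level with E2, and the sizes of C3, Kif6 and Mmp7 rest on the offset. The 3 genes furthest below 0, Car3, Fabp4 and Scd, overlapped between the groups. In limma, over 10154 genes left after the dimmest 30% were set aside, 0 genes had an adjusted p under 0.05, which is 0% of those tested, and the smallest adjusted p was 1.00. At an unadjusted p under 0.05 there were 82 genes (0.808%), 57 higher and 25 lower with 3-MC. After quantile normalization 0 were called, 475 passed unadjusted, 215 higher and 260 lower, and the smallest adjusted p was 0.868. The 6 rats did not overlap between groups for 315 genes (3.1%), 260 higher (2.56%) and 55 lower (0.542%), and for 813 genes (8.01%) after quantile normalization, 377 higher (3.71%) and 436 lower (4.29%).

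The size of the differences was bounded for most genes. The median difference was -0.05, the central 50% of genes lay between -0.17 and 0.08, and the central 90% between -0.33 and 0.26. Only 142 genes differed by more than 0.5 either way, 50 higher and 92 lower, and 14 by more than 1, of which C3 was the single one that was higher. For 9790 genes (96.4%) the 95% interval, unadjusted for the number of genes, lay within a 2-fold change in both directions. The median SE was 0.22. The direction of small differences followed the brightness of a gene: 39.2% of the dimmest of the 3 groups of genes, 61.8% of the middle one and 81.7% of the brightest were lower with 3-MC. After quantile normalization these shares were 57.7%, 54.8% and 52.9%. Without vehicle rat 1 the median difference of all genes was 0.15, and with quantile normalization as well it was 0.01. Values below without vehicle rat 1 are on the deposited scale unless stated, so they carry that shift.

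**Figure D1:**
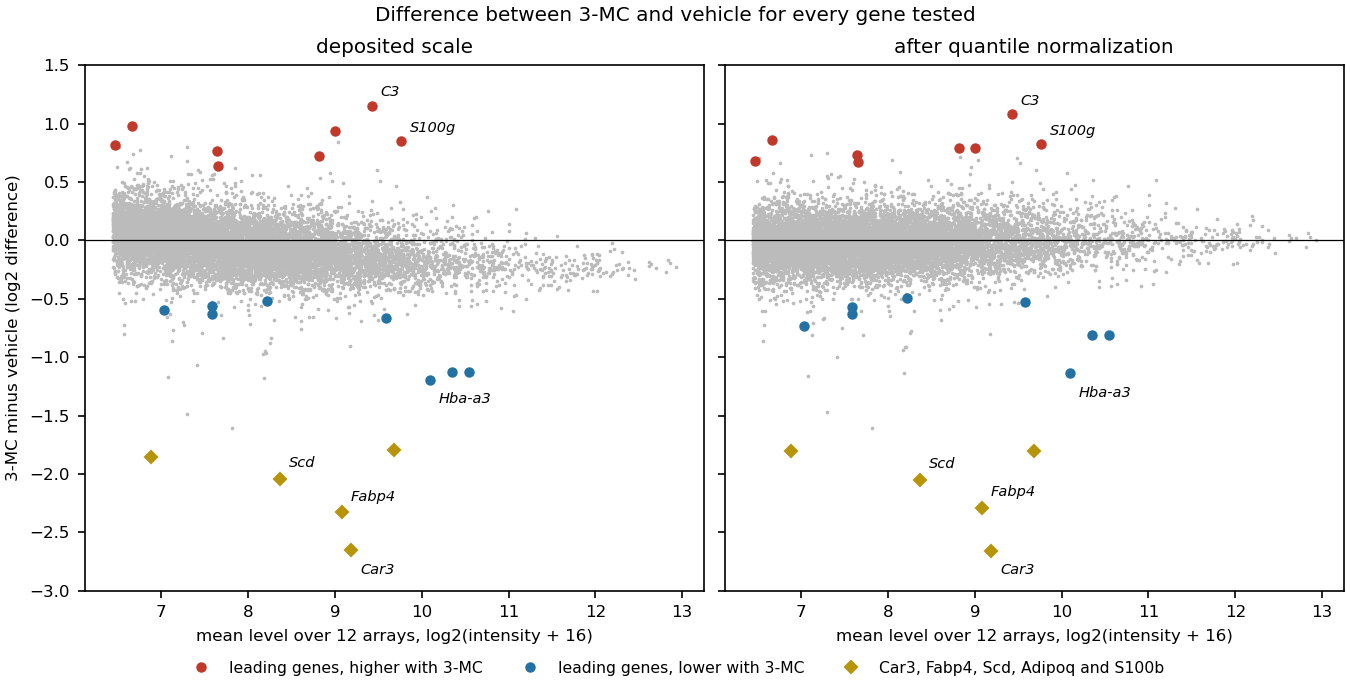
Log2 difference between 3-MC and vehicle (y axis) of the 10154 genes tested against their mean level over 12 arrays on the deposited scale (x axis), on the deposited scale at left and after quantile normalization at right. Each point is a gene; the cloud slopes below 0 for bright genes at left and lies around 0 at right, while C3 (1.15 and 1.08) and Hba-a3 (-1.19 and -1.14) keep their place.

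The genes that AhR ligands induce in other tissues did not separate the 3-MC rats from the vehicle rats. The 300 bases around the start of Ahrr and Cyp1b1, 250 before it and 50 from it, are printed because they hold the AhR core motif in the genes that most directly report on the receptor; they were read from RefSeq on build GRCr8, each on the strand of the gene, and the capitals mark GCGTG or its reverse complement. The Ahrr window, chr1:30821969-30822268 on the plus strand, has 3 matches, 1 of them in the longer form TNGCGTG. The Cyp1b1 window, chr6:21094315-21094614 on the plus strand, has 2, again with 1 in the longer form.
Ahrr: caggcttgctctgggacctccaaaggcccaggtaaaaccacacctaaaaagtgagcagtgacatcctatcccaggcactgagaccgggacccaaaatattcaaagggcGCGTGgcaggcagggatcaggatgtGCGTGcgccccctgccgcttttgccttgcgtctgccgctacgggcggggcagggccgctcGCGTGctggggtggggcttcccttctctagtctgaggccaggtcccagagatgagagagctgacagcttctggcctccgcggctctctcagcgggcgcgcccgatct
Cyp1b1: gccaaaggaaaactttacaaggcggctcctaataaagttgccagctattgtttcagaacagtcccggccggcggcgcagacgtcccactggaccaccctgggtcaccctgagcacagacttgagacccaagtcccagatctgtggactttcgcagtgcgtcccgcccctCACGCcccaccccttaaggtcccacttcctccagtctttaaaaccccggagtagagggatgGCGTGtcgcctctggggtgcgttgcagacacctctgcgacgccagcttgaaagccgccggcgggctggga
Searched on both strands, GCGTG occurs in 29.7% of all 33469 RefSeq windows of this length and TNGCGTG, which contains it, in 4.89%. Of the 16 measured AhR target genes with a window, 8 have GCGTG and 3 (18.8%) have TNGCGTG. A match describes the letters only.

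Cyp1a1, the monooxygenase most used as a readout of AhR activity, had levels of 5.52, 5.47 and 4.97 with vehicle and 5.44, 5.18 and 5.59 with 3-MC. The groups overlapped, with the highest level in a 3-MC rat and the lowest in a vehicle rat, and all 6 lay under 6.44, the limit below which genes were too dim to be tested. The difference of 0.08 ± 0.19 had a 95% interval from -0.32 to 0.49, or from 0.801-fold to 1.40-fold on the scale with the offset of 16, which understates changes of dim genes. An exact two-sided permutation test over the 6 rats gave p = 0.7, where the smallest p that 3 against 3 can give is 0.1. Cyp1b1, which oxidises polycyclic hydrocarbons and estradiol, measured 5.57, 5.50 and 5.42 with vehicle and 5.55, 5.70 and 5.48 with 3-MC. Its groups overlapped (0.08 ± 0.15, interval -0.23 to 0.40, exact permutation p = 0.5). Ahrr, the feedback repressor, measured 6.13, 6.36 and 6.20 with vehicle and 6.32, 6.32 and 6.19 with 3-MC. All 3-MC values of Ahrr fell inside the vehicle range (0.04 ± 0.15, interval -0.29 to 0.37, exact permutation p = 0.7). Cyp1a2, the third CYP1 enzyme, differed by 0.06 ± 0.16 and was also dim. After quantile normalization the differences of Ahrr, Cyp1b1 and Cyp1a1 were -0.10, -0.05 and -0.05, so that their sign depends on the scale.

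Among tested AhR targets, the quinone reductase gene Nqo1 measured 6.85, 6.26 and 6.26 with vehicle and 6.24, 6.36 and 6.07 with 3-MC. A single 3-MC rat lay inside the vehicle range and the others under it (-0.23 ± 0.21, limma adjusted p = 1.00). Aldh3a1, an aldehyde dehydrogenase, measured 6.52, 6.74 and 6.79 with vehicle and 6.91, 6.81 and 6.70 with 3-MC, again with overlap (0.12 ± 0.22). Xdh, which encodes xanthine dehydrogenase, measured 8.92, 8.07 and 7.63 with vehicle and 8.40, 8.20 and 8.45 with 3-MC, the latter all inside the vehicle range (0.14 ± 0.27). Fgf21, a hormone of the fasting response, was the highest of the tested targets at 0.33 ± 0.21, but its vehicle rats at 6.36, 6.99 and 6.83 overlapped with 7.23, 6.90 and 7.03, and without vehicle rat 1 it was at 0.14. The lowest was Cd36, a fatty acid transporter, at -0.72 ± 0.61, with 9.40 in vehicle rat 1 and 6.20 to 8.49 in the other 5 rats, and at 0.06 without vehicle rat 1. Cd36 is also an adipocyte gene, and its values moved with the adipocyte genes described below. Lrat, which stores retinol as esters, differed by 0.24 ± 0.30, the actin-severing gene Scin by 0.04 ± 0.29, Nedd9, a scaffold of cell adhesion signalling, by -0.01 ± 0.24, the glutathione transferase gene Gsta1 by -0.14 ± 0.24 and Sema6b, a semaphorin, by -0.07 ± 0.18.

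Of 22 listed AhR target genes, 18 were measured and 10 of these were tested, by their mean level over all arrays. Lrat entered the test through its mean of 8.95 with E2. Its means with vehicle and 3-MC, 5.72 and 5.96, lay under 6.44. Nqo1 was near this limit, with means of 6.46 with vehicle and 6.22 with 3-MC. The counts below include both genes, and at such levels the offset of 16 understates changes. None of the 10 was called by limma and 0 passed at an unadjusted p under 0.05, and the groups overlapped for all 10. After quantile normalization 1 did not overlap, Sema6b, lower with 3-MC, where 4.29% of all genes were. The median of the 10 was 0.01, beside -0.05 for all genes tested, and 0.10 without vehicle rat 1, beside 0.15. For 9 of the 10 the 95% interval lay within a 2-fold change either way; the exception was Cd36. Tiparp, another standard AhR target, was not measured by a probe set with a single gene symbol.

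**Figure D2:**
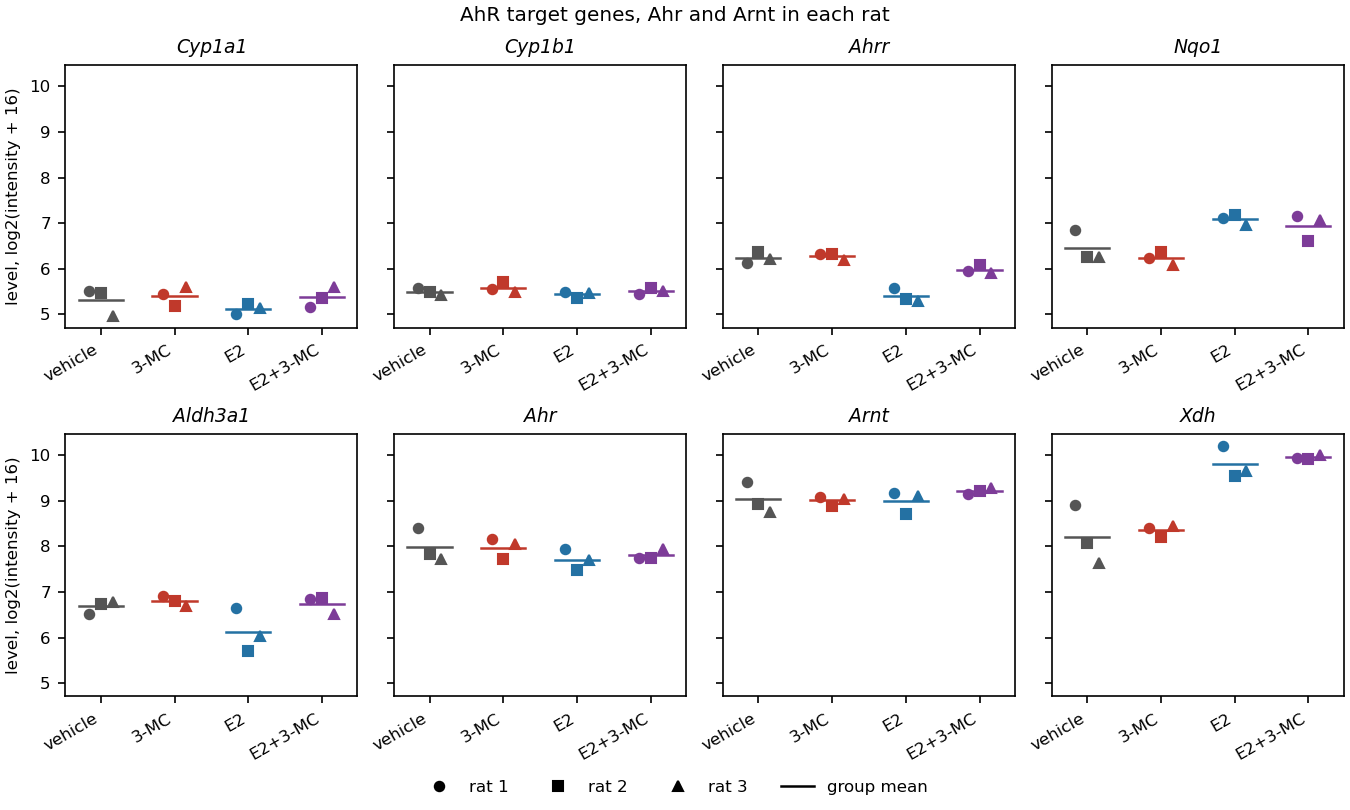
Levels, log2(intensity + 16), of AhR target genes and of Ahr and Arnt in each of 12 rats (points) by treatment group, with group means as bars. Vehicle and 3-MC points overlap in every panel; Cyp1a1 and Cyp1b1 stay between 4.97 and 5.70 in these groups.

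The receptor itself was present in both groups. Ahr measured 8.41, 7.82 and 7.73 with vehicle and 8.16, 7.72 and 8.05 with 3-MC, a difference of -0.01 ± 0.21 with an interval from -0.47 to 0.44. Its partner Arnt measured 9.40, 8.93 and 8.76 against 9.09, 8.89 and 9.04 (-0.02 ± 0.20). Both genes thus overlapped between groups. Hsp90ab1, a chaperone of the unliganded receptor, differed by -0.21 ± 0.20 and by 0.01 after quantile normalization. Of the 15 genes of the receptor, its partners and its chaperones that were tested, 14 were lower with 3-MC, 0 were called and 0 did not overlap. After quantile normalization Rela alone did not overlap, lower with 3-MC. Their median was -0.17, and it was -0.03 after quantile normalization and 0.15 without vehicle rat 1. The lowest were Epas1 at -0.38, a hypoxia-inducible factor gene whose product also pairs with ARNT, the NF-κB subunit gene Rela at -0.35 and Nfe2l2 at -0.32, the regulator of antioxidant genes; vehicle rat 1 was the highest rat for each of these, at 10.51, 10.40 and 10.60, and without it they were at 0.07, 0.07 and 0.05.

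Antioxidant genes, drug-metabolising enzymes and genes of DNA damage, which 3-MC and its reactive metabolites are known to alter in other tissues, also had no called member. All 24 tested genes of the NRF2 and antioxidant list were lower with 3-MC, with a median of -0.21, but without vehicle rat 1 the median was 0.12. The lowest were Mgst1, a membrane-bound glutathione transferase, and Sod3, the extracellular superoxide dismutase, each at -0.68. Mgst1 measured 11.75, 9.44 and 9.48 with vehicle and 9.31, 9.22 and 10.10 with 3-MC. Only vehicle rat 1 was above the 3-MC rats, and without it the difference was 0.09. For Sod3, at 10.10 in vehicle rat 1 and 7.99 to 8.66 in the other rats, it was -0.08. After quantile normalization without that rat, Mgst1 was at -0.06 and Sod3 at -0.26. Groups of all 24 genes overlapped, while after quantile normalization Prdx1, a peroxiredoxin gene, was higher and Gpx2, a glutathione peroxidase gene, lower without overlap, beside 3.71% and 4.29% of all genes.

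Of 28 further enzymes and transporters of xenobiotic metabolism, 0 were called, and 1 was lower without overlap on both scales, the sulfotransferase gene Sult1a1, where 0.542% of all genes were on the deposited scale and 4.29% after quantile normalization. It measured 9.39, 8.67 and 8.65 with vehicle and 8.64, 8.56 and 8.59 with 3-MC (-0.31 ± 0.22). The lowest vehicle rat and the highest 3-MC rat thus nearly met. The aldo-keto reductase gene Akr1b10 was at 0.39 ± 0.22, the carbonyl reductase gene Cbr1 at -0.38 ± 0.43 and the alcohol dehydrogenase gene Adh1c at -0.35 ± 0.33. Without vehicle rat 1 the latter pair turned sign, to 0.31 and 0.14, and Akr1b10 was at 0.24. After quantile normalization without that rat, Cbr1 was at 0.15, Adh1c at -0.02 and Akr1b10 at 0.10. The list's median was -0.09, and 0.12 without vehicle rat 1. Of 22 genes of the p53 and DNA damage response, 0 were called, and 1 was higher and 0 lower without overlap, beside 2.56% and 0.542% of all genes. That one was Bbc3, which encodes the pro-apoptotic protein PUMA, at a difference of 0.09. After quantile normalization Bbc3 overlapped, and the death receptor gene Tnfrsf10b was higher and Rrm2b, a subunit of ribonucleotide reductase, lower without overlap. Cdkn1a, the p53-induced cell cycle inhibitor, measured 8.50, 6.85 and 7.37 with vehicle and 7.18, 7.11 and 7.29 with 3-MC, so that the 3-MC rats lay inside the vehicle range. Mdm2, which encodes the ligase that degrades p53, was at -0.02 ± 0.26. Phlda3, a p53-induced inhibitor of Akt, was lowest at -0.72 ± 0.36 and at -0.08 without vehicle rat 1. With quantile normalization as well it was at -0.25.

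Of the 8 leading genes on the higher side, 3 (C3, S100g and Mmp7) are on the list of estrogen-induced uterine genes and 5 are not. The list holds 35 of the 10154 genes tested and was chosen with earlier results of these data known. C3 and Mmp7 entered the test through their level with E2, so this count is given no weight. C3, the complement component at which all activation routes meet and a long-used estradiol marker in rat uterus, measured 6.24, 5.61 and 5.72 with vehicle and 6.74, 6.72 and 7.58 with 3-MC. Every 3-MC rat was above every vehicle rat. The difference was 1.15 ± 0.26 with the offset of 16, 1.41 with an offset of 1 and 0.75 with 64, so that its size rests on the offset. The range over leaving out 1 rat at a time was 0.87 to 1.34, and the exact permutation p was 0.1, the smallest possible. S100g, the calcium-binding protein calbindin-D9k, measured 6.93, 7.31 and 7.01 with vehicle and 7.61, 7.75 and 8.44 with 3-MC. These groups did not overlap either (0.85 ± 0.23, range over left-out rats 0.59 to 1.01). Mmp7, a matrix metalloproteinase of epithelia, measured 5.14, 5.52 and 5.37 with vehicle and 6.31, 5.92 and 6.60 with 3-MC, again with no overlap (0.94 ± 0.28, range 0.77 to 1.11, and 1.29 and 0.51 with offsets of 1 and 64). Cuzd1, a secreted-protein gene of estrogen-responsive uterine epithelium, measured 5.11, 5.80 and 5.29 against 6.39, 5.68 and 6.65. Its groups overlapped in 1 pair of rats (0.84 ± 0.25). In all of these, 3-MC rat 3 had the highest level of the 6 rats. The vehicle means of C3, Mmp7 and Cuzd1 lay under 6.44, as did the 3-MC means of Mmp7 and Cuzd1, and these genes were tested because they are bright in the rats given E2.

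The differences were small beside those with E2, which used the same vehicle rats. From vehicle to E2, C3 differed by 6.69, S100g by 4.93, Mmp7 by 7.11 and Cuzd1 by 6.99. Set directly against E2, the 3-MC rats were lower for C3 by -5.54 ± 0.26, for S100g by -4.09 ± 0.23, for Mmp7 by -6.18 ± 0.28 and for Cuzd1 by -6.15 ± 0.25. S100g was called by limma, in a comparison where 20.6% of genes tested were called; C3, Mmp7 and Cuzd1 entered the test through their level with E2, so their calls are given no weight. When 3-MC was added to E2, C3 differed by -0.26, S100g by 0.00, Mmp7 by -0.52 and Cuzd1 by -0.28. The interaction, which asks whether the 3-MC difference depends on E2, had 0 genes called by limma (298 at an unadjusted p under 0.05) and a smallest adjusted p of 0.977. For C3 it was -1.41 ± 0.36 and for Mmp7 -1.45 ± 0.39, both uncalled.

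The window around the start of C3, chr9:2201290-2201589 on the minus strand of GRCr8 from RefSeq, is printed as that of the gene with the highest difference. It has no GCGTG on either strand, and 1 GGTCA, the half-site of an estrogen response element, on the reverse strand, shown in capitals as its reverse complement.
C3: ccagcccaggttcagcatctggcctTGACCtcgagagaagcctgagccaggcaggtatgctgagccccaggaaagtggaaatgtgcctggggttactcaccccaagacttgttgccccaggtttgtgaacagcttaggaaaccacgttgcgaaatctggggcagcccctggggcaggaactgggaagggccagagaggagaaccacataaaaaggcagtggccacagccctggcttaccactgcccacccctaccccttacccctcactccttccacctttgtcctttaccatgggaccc
GGTCA occurs on either strand in 40.5% of all RefSeq windows of this length, and in 5 of the 16 windows of AhR target genes (31.2%). The search covered this window only.

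**Figure D3:**
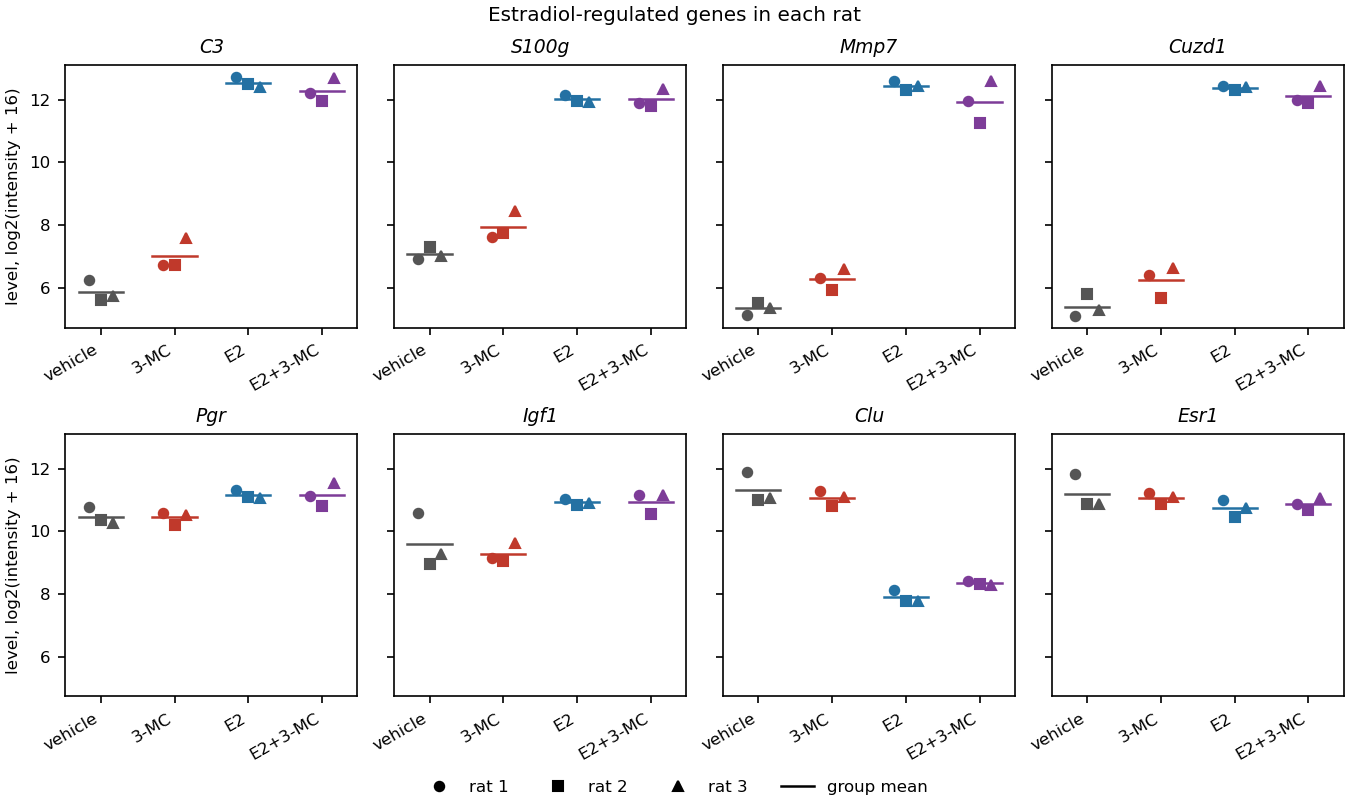
Levels, log2(intensity + 16), of 8 estradiol-regulated genes in each of 12 rats (points) by treatment group, with group means as bars. C3, S100g and Mmp7 are higher in every 3-MC rat than in every vehicle rat, yet lie far below the rats given E2, while Pgr, Igf1, Clu and Esr1 overlap between vehicle and 3-MC.

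Other estradiol-regulated genes did not share this pattern. The progesterone receptor gene Pgr measured 10.77, 10.37 and 10.27 with vehicle and 10.59, 10.20 and 10.53 with 3-MC (-0.03 ± 0.22). Igf1, a growth factor of the uterine stroma, measured 10.57, 8.94 and 9.27 against 9.16, 9.05 and 9.63 (-0.31 ± 0.32, and 0.18 without vehicle rat 1). Clu, the chaperone clusterin, which is low in the rats given E2, measured 11.88, 10.99 and 11.05 against 11.29, 10.81 and 11.08 (-0.25 ± 0.23, and 0.04 without vehicle rat 1). All of these overlapped. Lcn2, an iron-scavenging lipocalin, and Clca1, a secreted protein of goblet cells, both high in the rats given E2, were at -0.01 ± 0.40 and -0.05 ± 0.29. Ltf, the iron-binding protein lactoferrin, was dim, with a difference of 0.37 ± 0.20 and an exact permutation p of 0.2.

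Of 35 tested genes on the list of estrogen-induced uterine genes, 0 were called against vehicle, 4 passed at an unadjusted p under 0.05, and 4 were higher and 1 lower without overlap, where 2.56% and 0.542% of all genes were. After quantile normalization 3 were higher (C3, S100g and Mmp7) and 3 lower (Tff1, Ckb and Inhbb) without overlap, beside 3.71% and 4.29% of all genes. On the deposited scale the 4 higher were C3, S100g, Mmp7 and the mucosal chemokine Cxcl17 at 0.21. The lower one was the trefoil factor gene Tff1 at -0.22. C3 and Mmp7, like Cuzd1, entered the test through their level with E2, so these counts of higher genes are given no weight. The median of the list was -0.03, on both scales, beside -0.05 for all genes. Against E2, 19 of the 35 were called lower in the 3-MC rats and 3 higher, with a median of -0.92, where 10.5% and 10% of all genes were called. Of the 19, 4 had both vehicle and 3-MC means under 6.44 and were tested only through the rats given E2. C3, with means of 5.86 and 7.01, is not among these 4 but also entered the test through the rats given E2. Of 13 genes known to fall with estradiol, 0 were called against vehicle and 11 were lower, with a median of -0.25, which was -0.01 after quantile normalization and 0.17 without vehicle rat 1. The glutathione transferase gene Gstm1 was at -0.45 and Igfbp3, which binds insulin-like growth factors, at -0.48 in this list; without vehicle rat 1 they were at -0.19 and 0.03.

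Steroid receptors and their cofactors had no called member and no groups apart. Esr1 measured 11.83, 10.88 and 10.87 with vehicle and 11.24, 10.86 and 11.10 with 3-MC (-0.13 ± 0.25, interval -0.65 to 0.39), and its other probe set gave -0.16. Of 18 tested genes of this list 0 were called and 0 did not overlap, and the 95% interval lay within a 2-fold change for all 18. The lowest was Nr2f1, an orphan receptor, at -0.42 ± 0.24 and at -0.08 without vehicle rat 1. Genes of steroid synthesis and inactivation had 0 of 13 called, and 1 was higher without overlap, Sts, steroid sulfatase, at 0.16, where 2.56% of all genes were. After quantile normalization Sts overlapped and the single gene without overlap was Fdx1, lower, where 4.29% of all genes were. Fdx1, which passes electrons to steroidogenic enzymes, was at -0.41 ± 0.26, and at -0.10 without vehicle rat 1. Progesterone-responsive genes had 0 of 16 called and none without overlap. Hoxa11, a homeobox gene of the uterine stroma, was lowest at -0.52 ± 0.29 and at -0.10 without vehicle rat 1. After quantile normalization without that rat, Nr2f1, Fdx1 and Hoxa11 were at -0.25, -0.28 and -0.27.

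The other leading genes on the higher side form no list fixed for this comparison. Kif6, a kinesin motor gene, measured 5.41, 6.87 and 5.98 with vehicle and 7.18, 7.11 and 6.91 with 3-MC (0.98 ± 0.29). Hoxa5, a homeobox transcription factor, measured 7.08, 7.95 and 7.63 against 8.34, 8.21 and 8.42 (0.77 ± 0.26). Ly6g6c, of the Ly6 family of surface proteins, measured 7.49, 7.70 and 6.73 against 8.03, 7.82 and 7.99 (0.64 ± 0.22). In each of these the 3-MC rats lay close together and the vehicle rats lay apart, and Kif6 and Hoxa5 were lowest in vehicle rat 1. Without that rat the difference of Kif6 was 0.64, of Hoxa5 0.53 and of Ly6g6c 0.73. Smarce1, a subunit of the SWI/SNF chromatin remodeller, was at 0.72 ± 0.23 by the probe set used and at -0.22 by the other. For Raet1l, a ligand of a natural killer cell receptor, these were 0.82 ± 0.25 and 0.37. The vehicle means of Kif6 and Raet1l, 6.09 and 5.97, lay under 6.44. Their sizes rest on the offset: with offsets of 1 and 64 Kif6 was at 1.21 and 0.62, and Raet1l at 1.03 and 0.51.

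On the lower side, Tnnc2, a troponin of fast skeletal muscle, measured 10.72, 9.99 and 9.89 with vehicle and 9.58, 9.70 and 9.33 with 3-MC (-0.66 ± 0.27). RSA-14-44, a gene named only by this symbol, measured 7.18, 7.53 and 7.09 against 6.84, 6.65 and 6.53 (-0.59 ± 0.20). H2ax, the histone variant phosphorylated at DNA breaks, measured 8.52, 7.38 and 7.79 against 7.31, 7.30 and 7.22 (-0.63 ± 0.28). None of the 3 overlapped, but H2ax was at -0.31 without vehicle rat 1. Marveld1, a membrane protein gene, was at -0.56 ± 0.23 and at -0.34 without vehicle rat 1. Sema4c, a transmembrane semaphorin, was at -0.52 ± 0.23 by the probe set used and at -0.07 by the other. When 3-MC was added to E2, in rats outside both groups compared here, Tnnc2 was lower again (-0.89). H2ax, RSA-14-44, Sema4c and Marveld1 differed by 0.12, 0.05, 0.05 and -0.10 there, and the globin genes are given below.

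**Figure D4:**
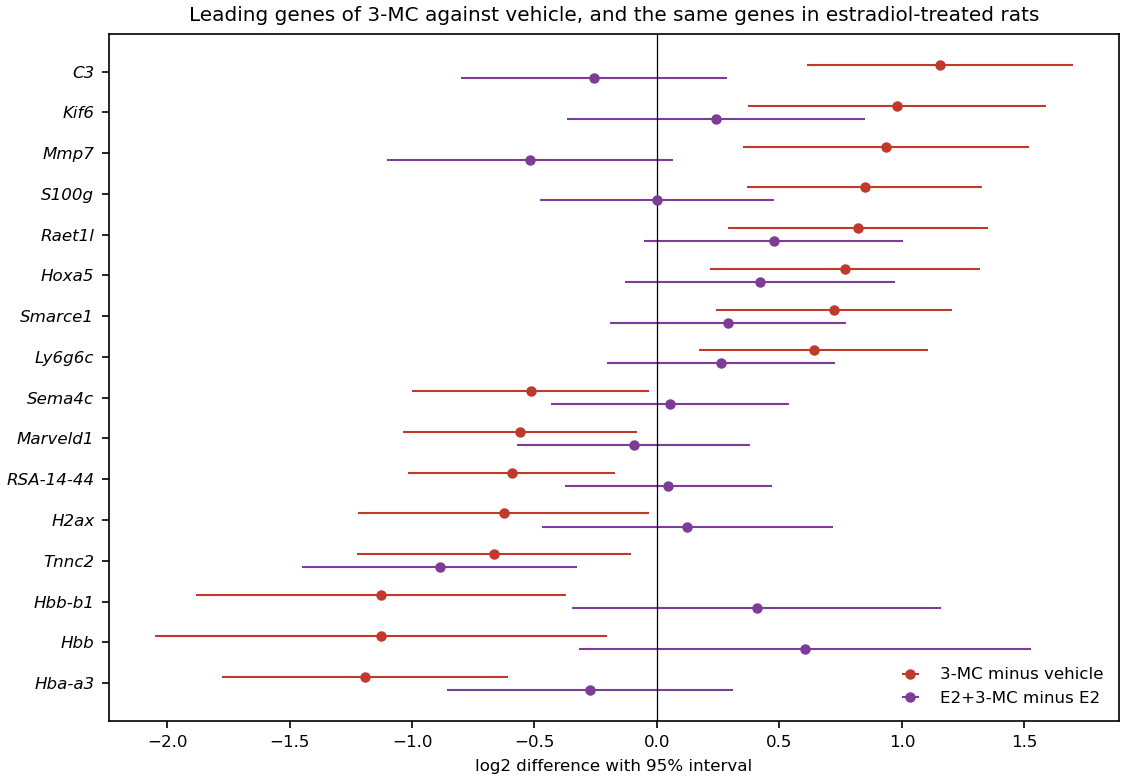
Log2 differences with unadjusted 95% intervals (bars) of the 8 leading genes on each side in 3-MC against vehicle and, from other rats, in E2+3-MC against E2. The members were chosen by the first comparison, so its intervals lie off 0 by choice; in the second the interval lies off 0 for Tnnc2 alone.

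The globin genes were the leading genes on the lower side. Hba-a3, an alpha-globin gene, measured 10.08, 8.80 and 9.90 with vehicle and 8.41, 8.16 and 8.64 with 3-MC. Hbb, a beta-globin gene, measured 12.13, 11.03 and 12.22 against 10.66, 10.48 and 10.86, and Hbb-b1 measured 11.79, 10.99 and 11.88 against 10.38, 10.34 and 10.57. In all 3 genes every 3-MC rat was below every vehicle rat, and vehicle rat 2 was the vehicle rat nearest to them. The differences were -1.19 ± 0.28 for Hba-a3, -1.13 ± 0.44 for Hbb and -1.13 ± 0.36 for Hbb-b1, all uncalled (limma adjusted p = 1.00), and without vehicle rat 1 they were -0.95, -0.96 and -1.01. Without vehicle rat 2, Hba-a3 was called, at -1.59 (limma adjusted p = 0.0287). Because the beta-globin genes Hbb and Hbb-b1 are near copies of each other, their probe sets may share signal. From vehicle to E2, Hbb and Hbb-b1 differed by -2.24 and -2.06 but Hba-a3 by 1.73. When 3-MC was added to E2, Hbb and Hbb-b1 went the other way, at 0.60 and 0.41, and Hba-a3 was at -0.27, all uncalled. Of 4 tested genes of the blood and erythroid list, these 2 beta-globin genes were lower without overlap, where 0.542% of all genes were, and Epb42, a red cell membrane protein, was higher, where 2.56% were. The same 3 were without overlap after quantile normalization. Epb42 was at 0.40 ± 0.21, and at 0.19 without vehicle rat 1. Alas2, the heme synthesis enzyme of red cell precursors, was at -0.37 and overlapped. The median of the 4 was -0.75, and -0.62 without vehicle rat 1. The summed intensity of the list was 8207, 4275 and 8756 with vehicle and 3124, 2864 and 3562 with 3-MC.

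Adipocyte genes lay furthest below 0 but had no separation between groups. Car3, carbonic anhydrase 3, measured 12.54, 9.59 and 10.60 with vehicle and 5.10, 8.48 and 11.19 with 3-MC. Fabp4, the fatty acid binding protein of fat cells, measured 12.19, 9.48 and 10.35 against 5.11, 8.59 and 11.34, and Scd, a fatty acid desaturase, measured 11.94, 9.36 and 8.98 against 6.10, 7.95 and 10.11. Vehicle rat 1 was the highest and 3-MC rat 1 the lowest in each, and 3-MC rat 3 was above vehicle rats 2 and 3. The differences of -2.65 ± 1.15, -2.33 ± 1.12 and -2.04 ± 0.88 had exact permutation p-values of 0.3 for Car3, 0.4 for Fabp4 and 0.3 for Scd. Without vehicle rat 1 the 3 genes stayed far below 0, at -1.84, -1.57 and -1.115 in the same order. Without 3-MC rat 1 they were at -1.08, -0.71 and -1.06. S100b, a calcium-binding protein of both Schwann cells and fat cells, ran the same way, at 10.20, 6.63 and 7.47 against 5.13, 6.03 and 7.58 (-1.86 ± 0.73).

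All 14 tested adipocyte genes were lower on average with 3-MC, 0 were called, 4 passed at an unadjusted p under 0.05 and the groups of all 14 overlapped. Their median of -0.93 was -0.11 without vehicle rat 1, and -0.28 with quantile normalization as well. Their summed intensity was 26850, 4107 and 5797 with vehicle and 1862, 2628 and 10020 with 3-MC. Genes of fatty acid synthesis, which fat cells express too, were all 17 lower, with a median of -0.37 and of 0.13 without vehicle rat 1. The fatty acid synthase gene Fasn was at -0.97 ± 0.54 and Thrsp, a lipogenic regulator, at -1.18 ± 0.70. Without vehicle rat 1, Fasn was at -0.01 and Thrsp at -0.21. The part of these cells in any other difference was not tested. Leptin, the fat hormone gene Lep, was dim, at 8.90 in vehicle rat 1 and 5.71 to 6.60 in the other rats.

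**Figure D5:**
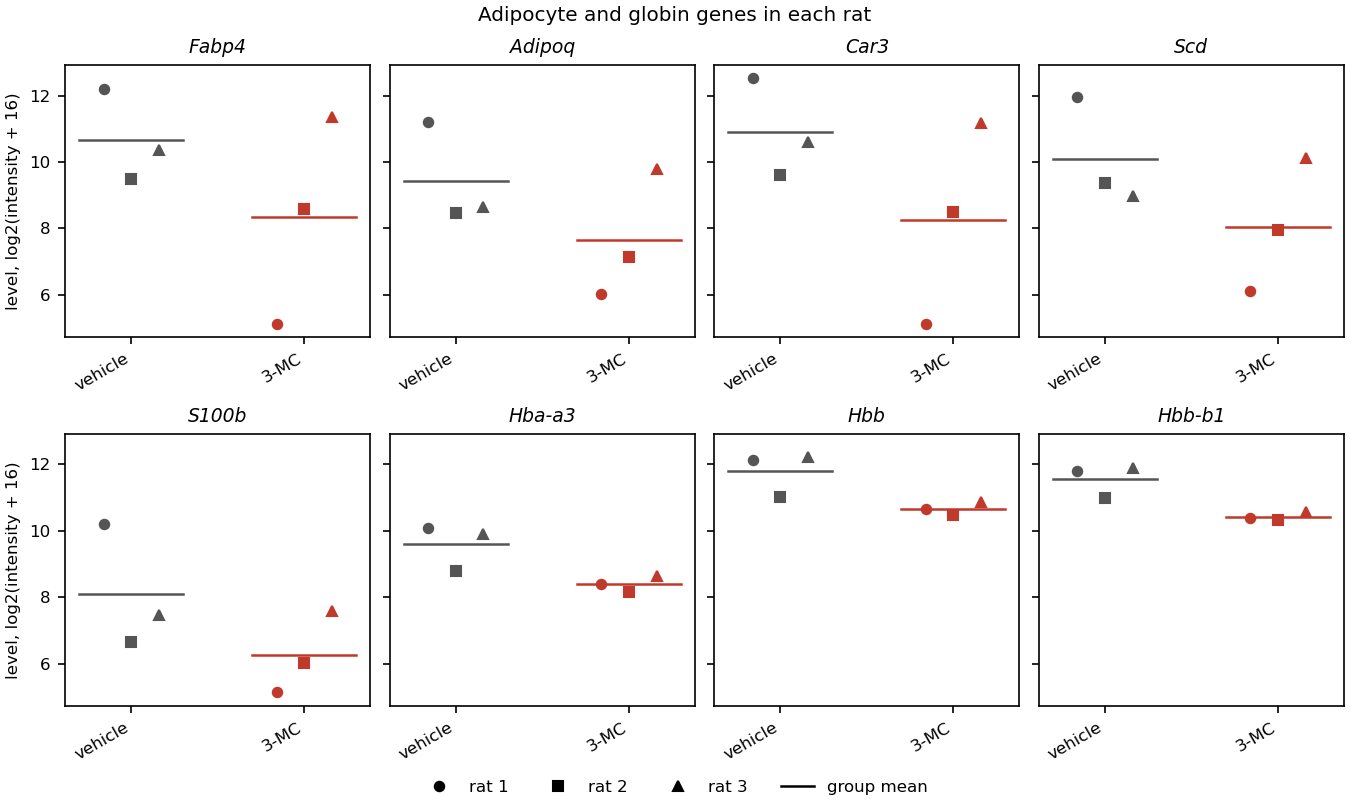
Levels, log2(intensity + 16), of adipocyte-expressed and globin genes in each vehicle and 3-MC rat (points), with group means as bars. For Fabp4, Car3 and Scd, 3-MC rat 1 is lowest and vehicle rat 1 highest with the other rats between, whereas the 3 globin genes separate the groups.

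Genes of proliferation and cell death had few groups apart and none called. Pcna, the sliding clamp of DNA replication, was at 0.06 ± 0.23. Of 32 tested genes of the cell cycle 0 were called, 16 were higher and 16 lower, and 31 had a 95% interval within a 2-fold change. The single one without overlap was Fen1, a flap endonuclease of DNA replication, higher at 0.24, beside 2.56% of all genes. After quantile normalization Fen1 was again higher and the cyclin gene Ccna2 lower without overlap. The median was 0.00, and 0.20 without vehicle rat 1, where all genes had 0.15. Of 24 apoptosis regulators 0 were called, and Bbc3 and Casp6, a caspase gene (0.30), were higher without overlap, beside 2.56% of all genes. After quantile normalization Casp6 was higher and Bcl2l11, which encodes the pro-apoptotic protein BIM, was lower without overlap. The lowest was Bcl2, the survival gene, at -0.36, which was 0.09 without vehicle rat 1.

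Immune and cell type lists had no called member either. Of 18 complement genes C3 and Cfi, an inhibitor of complement (0.21), were higher without overlap, beside 2.56% of all genes, and after quantile normalization C3 alone. The lowest was Cfd, complement factor D, at -0.84 ± 0.68 and at -0.05 without vehicle rat 1, which is also on the adipocyte list. Among 33 interferon response genes the median was 0.02, 17 were higher and 16 lower, and the interval lay within a 2-fold change for 32. None was without overlap on the deposited scale, and 2 were higher without overlap after quantile normalization, Gbp2 and Eif2ak2, beside 3.71% of all genes. Among 30 chemokines and cytokines, Cxcl17, Il15 (0.25) and Csf3 (0.13), the latter pair growth factors of lymphocytes and granulocytes, were higher without overlap, beside 2.56% of all genes, and after quantile normalization 0 of the 30 were without overlap. Ccl2, the monocyte attractant, measured 8.77, 6.31 and 6.27 with vehicle and 7.42, 6.84 and 8.78 with 3-MC, so that its difference of 0.56 ± 0.53 was 1.38 without vehicle rat 1. Of 19 macrophage markers 0 were called and the median was -0.13, and their summed intensity was 11860, 3686 and 3955 with vehicle and 4101, 3958 and 7338 with 3-MC. Of 8 tested lymphocyte markers 1 was higher without overlap, Zap70, a kinase of T cell signalling, at 0.42 ± 0.21, which was 0.20 without vehicle rat 3. It was without overlap on both scales, and 15 other markers were too dim to test. Mpo, the neutrophil peroxidase, was at -0.72 ± 0.34 and at -0.22 without vehicle rat 1.

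The medians of epithelial (-0.18, 23 genes), stromal (-0.14, 19), smooth muscle (-0.15, 18) and endothelial markers (-0.19, 20) were all below that of all genes. After quantile normalization they were -0.09, -0.02, 0.06 and -0.12, and without vehicle rat 1 they were 0.13, 0.17, 0.08 and 0.06. On the deposited scale the single marker among them without overlap was Plvap, a protein of endothelial pores, which measured 8.39, 7.61 and 7.65 with vehicle and 7.46, 7.52 and 7.33 with 3-MC (-0.45 ± 0.21, and -0.19 without vehicle rat 1), where 0.542% of all genes were lower without overlap. After quantile normalization 3 stromal markers (Wt1, Dpt and Col1a1) were higher without overlap, and 2 epithelial (Esrp1 and Spint2) and 2 endothelial markers (Plvap and Tek) were lower, beside 3.71% and 4.29% of all genes. Markers of skeletal muscle ran both ways, with Tnnc2 lower and Tnnt3, another troponin gene, higher without overlap (0.56 ± 0.22). Tnnt3 was at 0.29 without vehicle rat 1 and overlapped after quantile normalization, and Tnnc2 was at -0.41 without that rat. The fast myosin genes Myh1 and Myh4 and the myoglobin gene Mb were dim in both groups. Mesothelial and oviduct markers had medians of -0.02 and -0.08.

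Of matrix and signalling genes, Spp1, which encodes osteopontin, measured 6.57, 6.57 and 6.38 with vehicle and 6.71, 6.83 and 7.79 with 3-MC, higher without overlap (0.61 ± 0.26). Wnt6, a secreted Wnt ligand, measured 6.83, 7.02 and 6.29 against 7.30, 7.16 and 7.26, also without overlap (0.53 ± 0.20). Both were uncalled. Spp1 was at 0.27 without 3-MC rat 3 and overlapped after quantile normalization, and Wnt6 was at 0.31 without vehicle rat 3 and did not overlap on that scale. Eln, elastin, and Postn, a matricellular protein, were at 0.40 ± 0.24 and 0.38 ± 0.24 with overlap, and were higher without overlap after quantile normalization. Egr1, an immediate early transcription factor, measured 10.27, 8.51 and 8.64 against 8.50, 8.53 and 8.41, and its difference of -0.66 ± 0.34 was -0.09 without vehicle rat 1. The Wnt receptor gene Fzd2 went from -0.54 to -0.09 and Myc from -0.50 to -0.03 in the same way. After quantile normalization without that rat, Egr1, Fzd2 and Myc were at -0.26, -0.26 and -0.20. Oxidative phosphorylation (28 genes), cholesterol synthesis (17) and ER protein folding (25) had medians of -0.24, -0.24 and -0.20, which were 0.11, 0.07 and 0.12 without vehicle rat 1.

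Over all 36 lists, with 638 tested genes, 0 lists had a called member. The medians ran from -0.93 for adipocyte genes to 0.10 for chemokines and cytokines, and 23 of the 36 lay within 0.15 of 0.

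The same compound was also given on top of E2, in 6 rats that share no animal with this comparison. In E2+3-MC against E2, limma called 0 genes (0%), 937 passed at an unadjusted p under 0.05, and the smallest adjusted p was 0.0775; after quantile normalization 2 were called. Of the 82 genes at an unadjusted p under 0.05 in 3-MC against vehicle, 59 (72%) had the same sign there, beside 52.1% of all genes tested. On the deposited scale 75.1% of all genes were higher with E2+3-MC than with E2, and of the 57 higher and 25 lower genes 51 (89.5%) and 8 (32%) kept their sign. After quantile normalization, where 47.3% of all genes were higher, 159 of 215 higher genes (74%) and 189 of 260 lower genes (72.7%) did so, beside 58.9% of all genes. Across the 10154 genes Pearson's r between the comparisons was 0.15 and Spearman's rho 0.29, and 0.11 and 0.24 after quantile normalization; genes are not independent replicates. Of the 8 leading higher genes, Raet1l was at 0.48, Hoxa5 at 0.42, Smarce1 at 0.29, Ly6g6c at 0.26, Kif6 at 0.24, S100g at 0.00, C3 at -0.26 and Mmp7 at -0.52 in E2+3-MC against E2, all uncalled. After quantile normalization these were 0.21, 0.24, 0.20, 0.08, -0.0072, 0.03, -0.22 and -0.51 in the same order. The adipocyte genes went the other way there, with a median of 1.02.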

How the data were processed

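Total RNA of 1 uterus per rat was hybridised to Affymetrix arrays, per the labels' protocols. For each probe set the authors deposited 1 intensity, not log-transformed. It came from PLIER in Affymetrix Expression Console, per the submitters' processing notes. Settings, between-array normalization, genome build and annotation: not given in the sources used here. All 12 arrays, 29214 probe sets each, were used.

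Probe sets were named from the platform annotation: 15310 had 1 symbol, 323 several and 13581 none. RefSeq (GRCr8) matched 15279 of the 15310; 31 did not match and 0 symbols changed. For 527 genes with several probe sets the one with the highest mean was kept. Intensities were transformed as log2(intensity + 16). The dimmest 30% of genes, 4352 with a mean over 12 arrays under 6.44, were not tested. The remaining 10154 were fitted in limma 3.58.1 (R 4.3.3) with 1 mean per group over all 12 arrays (lmFit, eBayes; 8 residual and 8.92 prior degrees of freedom), two-sided, with Benjamini-Hochberg adjustment over all genes tested; calls needed an adjusted p under 0.05. "Rats did not overlap" means that all 3 of one group exceeded all 3 of the other. Dim genes and single values have exact two-sided permutation tests over 6 rats. The fit was tested on simulated data.

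The comparison, the 36 gene lists (888 symbols, 781 measured) and the rule for named genes were chosen with earlier results of these data known. The rule names fixed AhR and estradiol markers, the 8 genes per side with the smallest p among those without overlap, the 3 members with the largest difference in each list, and the 3 highest and 3 lowest differences. Cuzd1, further members of the AhR lists, list members without overlap and single genes given for their role (Xdh, Scin, Lcn2, Clca1, Mdm2, Alas2, Myh11, Epcam, Hsp90ab1 and the like) fall outside it and were picked with their values in view. The fit did not pair rats by number: each rat is another animal, and the labels tie no number to a litter or batch. The deviations of same-numbered rats correlated at -0.27, 0.18 and -0.20, and those of differently numbered rats from -0.445 to 0.393. With 3 rats per group these values cannot exclude a shared block. The number of arrays limits the precision.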

Additional observations from a re-analysis of the deposited data

How the results depend on the processing

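The median SE with 3 rats per group was 0.22, and genes with a mean under 6.44 have only their values. The 0 genes called between 3-MC and vehicle stayed 0 under quantile normalization, median centring, offsets of 1 and 64, no filter on dim genes or one of 50%, a fit of the 6 arrays alone, trend and robust eBayes, each probe set tested on its own and, chosen after seeing the data, all probe sets named or not, and quantile normalization without vehicle rat 1. With the rat number as a replicate block, 0 were called and 140 passed at an unadjusted p under 0.05. Leaving out 1 rat at a time gave 0 to 1 genes, the 1 being Hba-a3 at -1.59 without vehicle rat 2.

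Gene-by-gene array weights, from 0.0526 for vehicle rat 1 to 10.8 for E2 rat 3, called 6 genes: Hba-a3 (-1.12), C3 (1.29), Ly6g6c (0.91), Suv39h1, Gtf2h4 and LOC252890. The default weights did not converge and were not used. The weights also gave 937 calls for the interaction, 6505 for E2+3-MC against E2 and 7145 for 3-MC against E2, where the fits as reported gave 0, 0 and 2089; the cause was not tested.

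E2+3-MC against E2 had 2 calls after quantile normalization, 1 after median centring, 1 with the dimmest 50% left out, 3 with trend and robust eBayes, 21 with quantile normalization without vehicle rat 1, and 0 to 18 over left-out rats, the 18 without E2+3-MC rat 3. 3-MC against E2 had 4208 calls after quantile normalization, 1297 with the dimmest 50% left out, 4956 with quantile normalization without vehicle rat 1, and 1094 to 2026 over left-out rats; fewer arrays or genes entered some of these fits, and the cause of the rest was not tested. Among the fixed markers, signs turned after quantile normalization for Ahrr (-0.10), Cyp1b1 (-0.047), Cyp1a1 (-0.045) and Aldh3a1 (-0.0005). They turned to above 0 for Ahr (0.03), Arnt (0.10), Esr1 (0.09) and Pgr (0.18). With quantile normalization without vehicle rat 1 they turned for Ahrr (-0.0977), Aldh3a1 (-0.067) and Igf1 (0.0385), and again for Ahr, Arnt, Esr1 and Pgr. Of 2268 pairs of a named gene and a setting, 133 over 55 genes changed sign, and 7 of 648 list medians moved by at least 1 SD. This SD is that of the list mean between rats of a group, with vehicle rat 1 included, so it is a wide measure. Without that rat most list medians below 0 turned above 0, as for oxidative phosphorylation (-0.24 to 0.11), but not for adipocyte or blood genes.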
